A study of Homo sapiens with 6 samples.

Results

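A set of 10 genes forms a group of chemokine, inflammatory mediator and feedback genes that respond to the transcription factor NF-kB, namely CCL20, CXCL8, CXCL1, CXCL2, IL1B, PTGS2, ICAM1, BIRC3, TNFAIP3 and NFKBIA. A gene was represented by the probe set whose platform annotation gave its symbol and no other, with the brightest taken where several did. Of these 10 genes, 9 had such a probe set, 1 for each gene, out of 18417 genes measured, and BIRC3 was not analysed here. Expression was measured on 6 whole-transcript arrays of WM164, a BRAF-mutated human melanoma line from a lymph node metastasis. IDTC stands for induced drug tolerant cells, of which 3 samples had been kept for 16 days in PLX4032 at 500 nM, a drug also called vemurafenib that blocks mutant BRAF. The Parent group held 3 samples given DMSO, the vehicle, for a time that the labels do not state, so the groups may also differ in how long they were cultured. All samples come from this 1 cell line, and whether the triplicates stem from separate experiments is not stated, so p-values rest on a spread that may be partly technical.

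NF-kB is a family of dimeric transcription factors that rest in the cytoplasm bound to inhibitors of the IkB type. Signals from receptors for TNF, interleukin 1 or microbial products activate the IKK kinase, which marks IkB for destruction, and the freed dimers enter the nucleus and bind kappa B sites. Among the genes they switch on are chemokines that attract leukocytes, and also the inhibitors that end the signal, NFKBIA (IkB alpha) and TNFAIP3 (the ubiquitin-editing enzyme A20). Several of the chemokine genes also respond to ERK and AP-1, and melanoma cells are known to make some of the chemokines themselves.

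The sequences just before the start of the genes show where kappa B matches lie. They come from RefSeq (GRCh38.p14), and capitals mark matches to the kappa B consensus motif or to the shorter and looser pattern GGNNNTTCC, which overlaps it, on either strand. The capitals are letter matches and not binding sites shown by experiment. The genes shown are those with a match near the start, so that genes that fell, rose or were not called can be read side by side.
CCL20 (GRCh38.p14 chr2:227813692-227813841, plus strand): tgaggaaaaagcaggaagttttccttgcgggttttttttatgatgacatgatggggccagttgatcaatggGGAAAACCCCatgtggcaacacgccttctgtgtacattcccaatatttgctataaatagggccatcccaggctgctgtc
CXCL8 (GRCh38.p14 chr4:73740419-73740568, plus strand): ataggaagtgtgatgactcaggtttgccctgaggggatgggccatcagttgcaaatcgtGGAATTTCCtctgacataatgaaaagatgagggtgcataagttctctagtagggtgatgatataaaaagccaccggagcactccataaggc
CXCL1 (GRCh38.p14 chr4:73869243-73869392, plus strand): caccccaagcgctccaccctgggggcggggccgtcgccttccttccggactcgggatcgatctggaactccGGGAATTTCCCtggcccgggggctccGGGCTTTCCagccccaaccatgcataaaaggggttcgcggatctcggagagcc
CXCL2 (GRCh38.p14 chr4:74099196-74099345, minus strand): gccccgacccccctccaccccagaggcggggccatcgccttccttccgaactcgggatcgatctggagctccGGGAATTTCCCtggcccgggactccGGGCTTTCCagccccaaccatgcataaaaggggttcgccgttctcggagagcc
ICAM1 (GRCh38.p14 chr19:10270920-10271119, plus strand): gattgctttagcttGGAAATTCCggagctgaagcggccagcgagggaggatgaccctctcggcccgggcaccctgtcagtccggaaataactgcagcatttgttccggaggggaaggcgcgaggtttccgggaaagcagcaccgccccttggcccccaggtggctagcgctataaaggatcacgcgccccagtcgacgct
TNFAIP3 (GRCh38.p14 chr6:137867109-137867258, plus strand): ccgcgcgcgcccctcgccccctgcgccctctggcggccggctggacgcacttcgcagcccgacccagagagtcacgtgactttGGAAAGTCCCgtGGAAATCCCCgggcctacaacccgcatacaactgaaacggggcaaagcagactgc
NFKBIA (GRCh38.p14 chr14:35404750-35404899, minus strand): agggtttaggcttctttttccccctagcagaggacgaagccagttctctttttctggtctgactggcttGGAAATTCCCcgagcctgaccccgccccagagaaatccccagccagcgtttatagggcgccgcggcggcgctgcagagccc
In the 250 bases before the start, the consensus motif was found in 5 of the 9 genes (CCL20, CXCL1, CXCL2, TNFAIP3 and NFKBIA), against 9.57% of 27305 promoters of the same length. The looser pattern was found in 7 of the 9, against 17.1%. These genes were grouped as NF-kB responders, so an excess of such matches may follow from the choice. In CXCL1 and CXCL2 the match reads GGGAATTTCCC in both genes. NFKBIA had a further looser match upstream of the bases shown. CXCL8 and ICAM1 carried only the looser match, and CXCL8 alone had the AP-1 pattern TGANTCA, which 6.6% of promoters held. PTGS2 and IL1B had no match of any kind in this window, which says nothing about sites elsewhere.

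**Figure D1:**
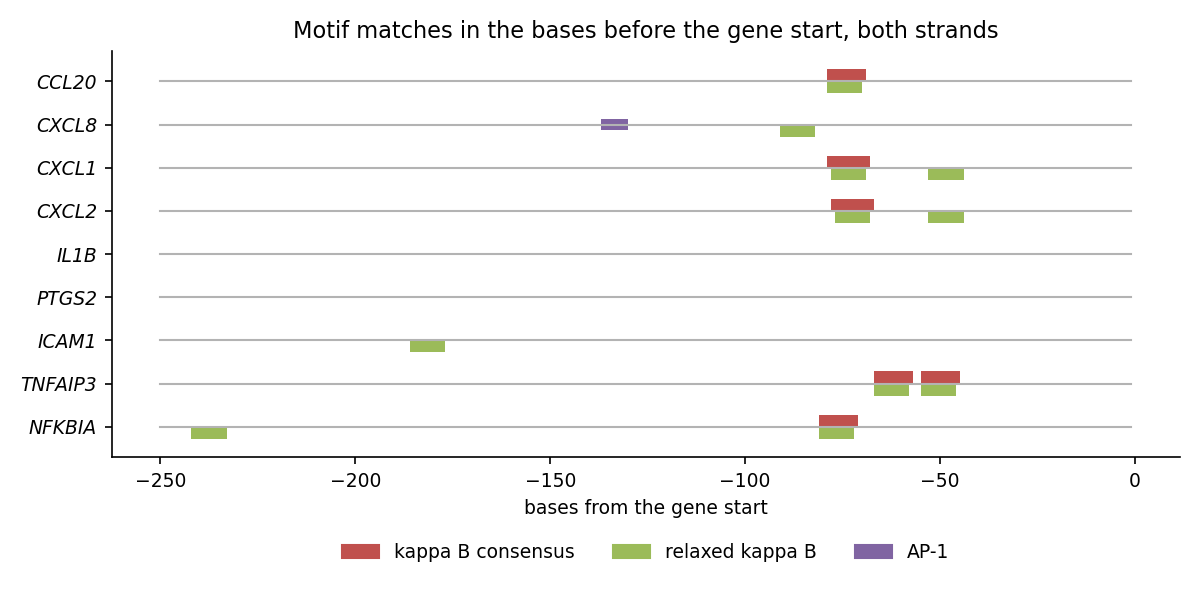
Positions of motif matches in the 250 bases before the start of each of the 9 genes, counted in bases from the start (horizontal axis), with red for the kappa B consensus, green for the looser pattern and purple for AP-1. The consensus matches of CCL20, CXCL1, CXCL2, TNFAIP3 and NFKBIA all lie within the last 81 bases before the start.

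In the drug-tolerant cells 5 of the 9 genes fell, 1 rose and 3 were not called. CCL20 and TNFAIP3 were more than 4-fold lower, PTGS2 was 2.54-fold and ICAM1 1.74-fold lower, and CXCL8 was 1.27-fold lower. NFKBIA was 1.68-fold higher. CXCL1, CXCL2 and IL1B differed by at most 0.16 on the log2 scale. Calls were made with limma (2-sided, all 6 arrays) where the p-value, adjusted by Benjamini-Hochberg across the 18417 genes, was under 0.05. By that rule 46.6% of all genes were called, 24.9% as lower and 21.7% as higher, so a call alone sets these genes little apart from the rest. Of the 9 genes, 3 were called at 2-fold or more, all of them lower. Of all 18417 genes, 1696 were called at 2-fold or more in either direction, and 5.4% were called lower by that much. The values of the IDTC and Parent arrays did not overlap for 7 of the 9, against 54.1% of all genes, with IDTC lower in 5 (28.7% of all genes) and higher in 2 (25.4%). The median log2 difference was -0.35 over the 9 genes and -0.01 over all genes. The genes were chosen with earlier results of these data known, so these shares are descriptions. These are bulk samples, in which fewer cells making an mRNA and less of it per cell cannot be told apart.

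**Figure D2:**
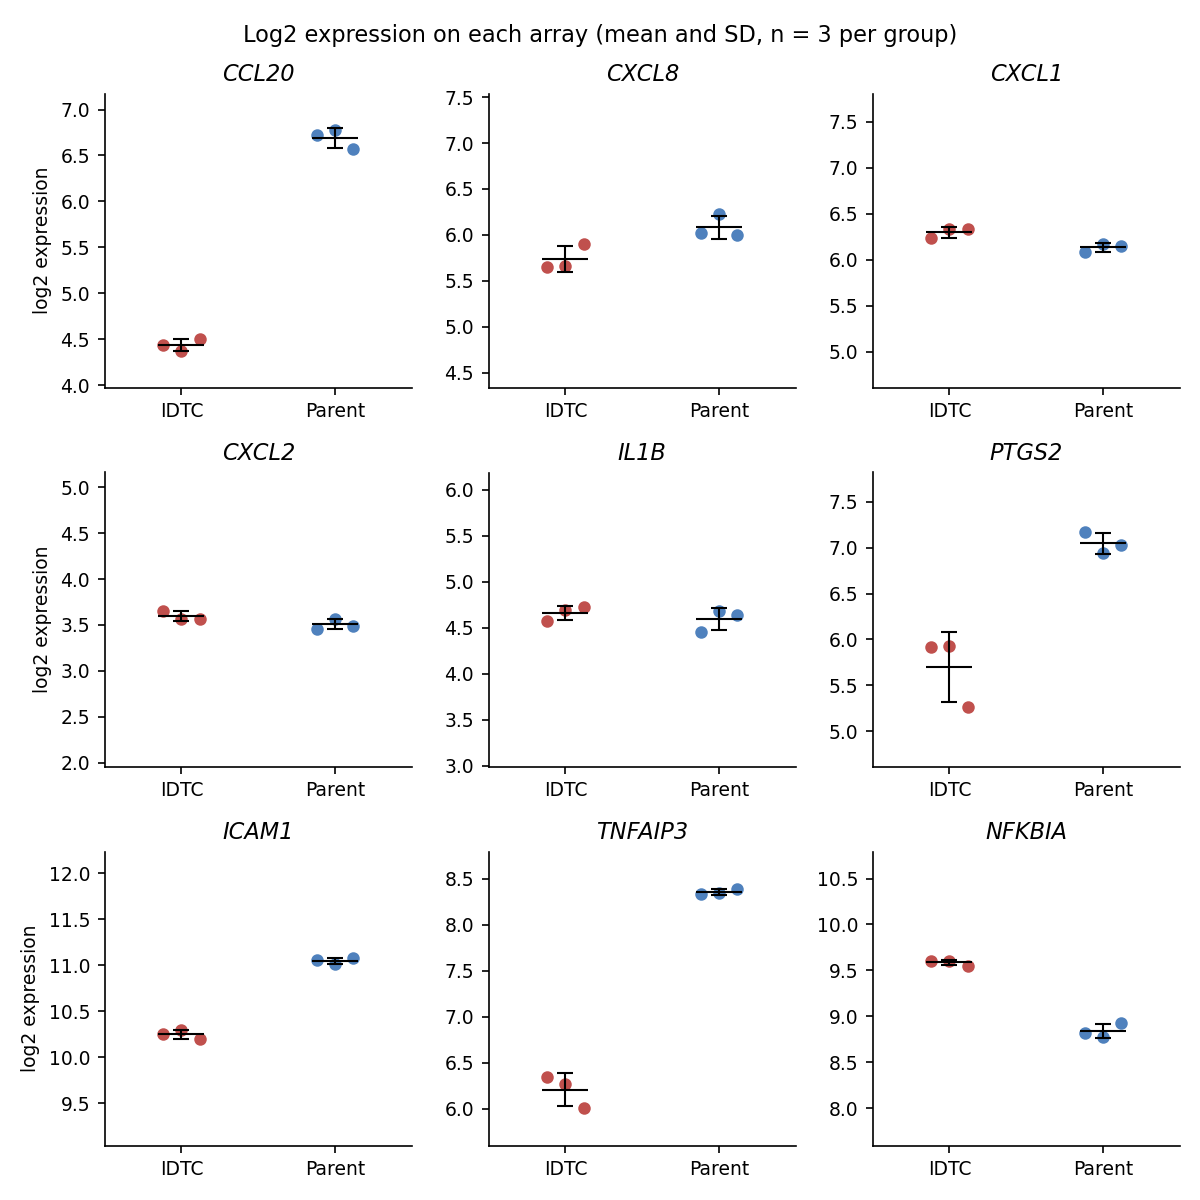
Log2 expression (vertical axis, 3.2 units high in each panel) of the 9 genes on the 3 IDTC (red) and 3 Parent (blue) arrays, with the mean and SD (bars). CCL20, TNFAIP3 and PTGS2 are clearly lower in IDTC arrays, NFKBIA is higher, and CXCL2 and IL1B overlap.

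Among the chemokine ligands, CCL20, which draws CCR6-bearing dendritic cells and lymphocytes, had log2 values of 4.44, 4.38 and 4.51 in IDTC arrays, against 6.72, 6.77 and 6.57 in Parent arrays. All IDTC arrays lay at least 2 log2 units below the lowest Parent array, and the difference was -2.25 ± 0.07 (SE, limma adjusted p = 7.44e-07). The files carry no detection call, so the IDTC level may be background, in which case the fall is understated. CXCL8 (interleukin 8), the neutrophil attractant that also acts on melanoma and endothelial cells, had 5.65, 5.66 and 5.91 in IDTC arrays, against 6.02, 6.23 and 6.003 in Parent arrays. The gap between the groups was small, with the highest IDTC array just under the lowest Parent array, and the difference was -0.35 ± 0.10 (limma adjusted p = 0.0202). This call was lost when IDTC 1 (adjusted p = 0.0681), IDTC 2 (0.0732) or Parent 2 (0.0708) was left out in the limma fit.

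CXCL1 and CXCL2 encode close relatives that act through CXCR2. CXCL1 had 6.23, 6.33 and 6.33 in IDTC arrays, against 6.08, 6.17 and 6.15 in Parent arrays. Its IDTC arrays all lay above the Parent arrays, but the difference of 0.16 ± 0.06 (95% confidence interval 0.03 to 0.30) missed the threshold (limma adjusted p = 0.0516). It passed without IDTC 1 (limma adjusted p = 0.0403) and under some other scalings, which are given with the alternatives. CXCL2 had 3.66, 3.57 and 3.57 in IDTC arrays, against 3.46, 3.57 and 3.49 in Parent arrays, which overlapped. Its difference of 0.09 ± 0.06 had an interval of -0.05 to 0.23 (limma adjusted p = 0.255). The values are low in both groups, and whether they lie above background is unknown. The CXCL1, CXCL2 and CXCL3 mRNAs are similar in sequence, so part of a probe set's signal could come from a relative.

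Among the inflammatory mediators, IL1B, the cytokine that itself activates NF-kB, had 4.57, 4.69 and 4.72 in IDTC arrays, against 4.45, 4.68 and 4.64 in Parent arrays. The groups overlapped and the difference was 0.07 ± 0.08 (interval -0.11 to 0.26, limma adjusted p = 0.511). PTGS2 (cyclooxygenase 2), the inducible enzyme of prostaglandin synthesis, had 5.92, 5.93 and 5.26 in IDTC arrays, against 7.17, 6.95 and 7.03 in Parent arrays. IDTC 3 stood below the other IDTC arrays, and the SD was 0.38 in IDTC against 0.11 in Parent arrays. The difference was -1.34 ± 0.18 (limma adjusted p = 0.00054), and -1.12 without IDTC 3. ICAM1, the adhesion molecule that binds leukocyte integrins, had 10.26, 10.30 and 10.20 in IDTC arrays, against 11.06, 11.01 and 11.08 in Parent arrays. No array of either group overlapped the other group, and ICAM1 fell by 0.80 ± 0.05 (limma adjusted p = 1.64e-05).

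The feedback genes of the group, TNFAIP3 and NFKBIA, moved in opposite directions. TNFAIP3, whose product A20 takes apart the ubiquitin chains that carry the signal to IKK, had 6.35, 6.27 and 6.003 in IDTC arrays, against 8.34, 8.34 and 8.39 in Parent arrays. The difference was -2.15 ± 0.09 (limma adjusted p = 2.17e-06), with a wider spread in IDTC (SD 0.18) than in Parent arrays (SD 0.03). NFKBIA, whose product IkB alpha holds NF-kB in the cytoplasm, had 9.61, 9.60 and 9.55 in IDTC arrays, against 8.82, 8.78 and 8.93 in Parent arrays. The difference was 0.75 ± 0.06 (interval 0.61 to 0.89, limma adjusted p = 3.63e-05), and every IDTC array lay above every Parent array. NFKBIA and TNFAIP3 both hold consensus kappa B matches in the sequences printed above.

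**Figure D3:**
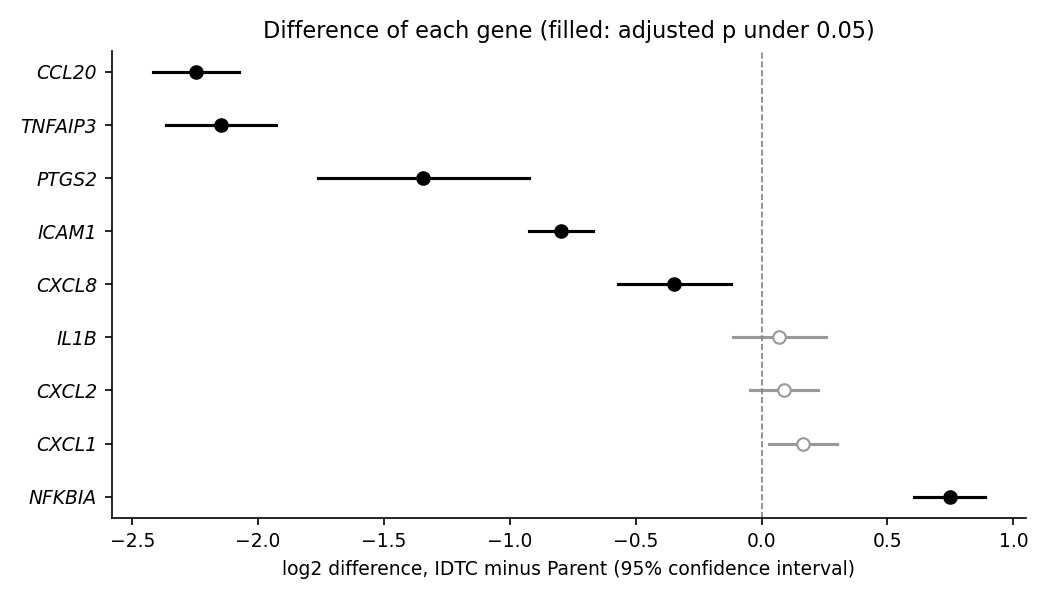
Log2 difference (IDTC minus Parent, horizontal axis) of each of the 9 genes with its 95% confidence interval, filled where the adjusted p is under 0.05. The intervals of CCL20 (-2.42 to -2.08) and TNFAIP3 (-2.37 to -1.93) overlap each other, and NFKBIA (0.61 to 0.89) is the called gene to the right of 0.

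CCL20 and TNFAIP3, the genes of the group with the largest called differences, were each compared with all others by the root mean square distance of log2 values over the 6 arrays, after subtraction of the Parent mean. STK32B (0.07), UBASH3B (0.08) and GINS2 (0.09) lay closest to CCL20. ACTN1 (0.06), FAM210A (0.06) and SPRY1 (0.07) lay closest to TNFAIP3. With 2 groups of arrays such likeness reflects little more than a similar size of change.

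The genes of the NF-kB pathway and of processes beside it were then described from lists, which like the 9 genes were chosen with earlier results known. Of 143 measured genes in 13 lists, 63 were called, 17 as higher and 46 as lower, with a median log2 difference of -0.04. The 13 lists include 10 reporters of MAPK output, which all fell, so part of the 46 lower calls comes from that list. The shares of all genes were 46.6% called, 21.7% higher and 24.9% lower, and the counts of each list below stand against these. Of the 5 subunit genes, 2 fell and 3 were not called. NFKB2, the p100/p52 subunit of the alternative pathway, had 6.63, 6.94 and 6.87 in IDTC arrays, against 8.09, 8.09 and 8.29 in Parent arrays (difference -1.35 ± 0.10, limma adjusted p = 2.22e-05). RELB, its usual partner, fell by 0.44 ± 0.12 (limma adjusted p = 0.0169). The subunits of the classical pathway were not called, with RELA at 9.44 ± 0.02 in IDTC and 9.39 ± 0.05 in Parent arrays and NFKB1 at 9.19 ± 0.07 in IDTC and 9.07 ± 0.10 in Parent arrays (SD, n = 3 each). This split depended on the scaling. It was 1 higher and 2 lower after quantile normalization over all probe sets. It was 3 higher and 2 lower after quantile normalization over the named genes, which in these scalings are all 18417 genes measured. It was also 1 higher without IDTC 3, and only 1 was lower without Parent 3.

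Upstream of NF-kB, 5 of 10 receptor genes fell, none rose and 5 were not called. TNFRSF12A, the receptor of TWEAK, fell by 2.04 ± 0.07 (SE). Its levels were 8.90 ± 0.04 in IDTC and 10.95 ± 0.10 in Parent arrays (SD). IL1RAP, the accessory chain of the interleukin 1 receptor, fell by 1.87 ± 0.07, and the lipopolysaccharide receptor gene TLR4 fell by 1.19 ± 0.08. After re-centring on the named genes 1 receptor gene was higher and 5 were lower, and 1 was higher without Parent 1. Of 19 measured IKK and adaptor genes, 6 rose, 7 fell and 6 were not called. The kinase genes IRAK1 (-1.19 ± 0.10) and CHUK (-0.76 ± 0.06) (which encodes IKK alpha) and the adaptor gene TRAF3 (-0.88 ± 0.08) had the largest differences. The balance of this list turned to 8 higher and 6 lower under 3 of the 4 other scalings, and 3 were higher without Parent 2. None of 6 measured upstream cytokine genes was called by limma or had an unadjusted p under 0.05, among them TNF (0.02 ± 0.06), IL1A (0.13 ± 0.07) and IL33 (-0.20 ± 0.09). After quantile normalization over all probe sets 1 of the 6 was called lower.

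Of 18 other inhibitor and feedback genes, 9 fell, 3 rose and 6 were not called. IER3, a stress-response gene induced by both NF-kB and ERK, fell by 2.44 ± 0.06 (SE, limma adjusted p = 2.59e-07). Its levels were 10.18 ± 0.04 in IDTC and 12.61 ± 0.05 in Parent arrays (SD). TNIP1, which encodes an A20-binding partner, fell by 0.69 ± 0.07, and TNFAIP6, a secreted hyaluronan-binding protein gene, rose by 0.71 ± 0.08. The relatives of NFKBIA did not rise with it. NFKBIE (-0.69 ± 0.08), NFKBID (-0.60 ± 0.11), NFKBIB (-0.30 ± 0.06) and NFKBIZ (-0.23 ± 0.07) fell, and BCL3 (-0.09 ± 0.06) was not called. Among 17 other chemokine ligand genes, 3 rose, 2 fell and 12 were not called. The membrane-bound chemokine genes CX3CL1 (-0.65 ± 0.06) and CXCL16 (-0.54 ± 0.06) fell, and CCL4 rose by 0.39 ± 0.11 at a low level. The rises were not stable, with 0 higher and 2 lower after quantile normalization over all probe sets, 6 higher and 2 lower after re-centring on the named genes, 1 higher without IDTC 2 or without IDTC 3, and 0 higher without Parent 3. CXCL3, CXCL5 and CXCL6, the neighbours of CXCL1 in the same chemokine branch, differed by 0.08 ± 0.08, 0.15 ± 0.07 and 0.00 ± 0.07 and were not called. None of 8 measured other cytokine targets was called by limma or had an unadjusted p under 0.05, with IL24 (-0.21 ± 0.10), IL32 (-0.11 ± 0.10) and IL6 (0.05 ± 0.06) given as values.

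**Figure D4:**
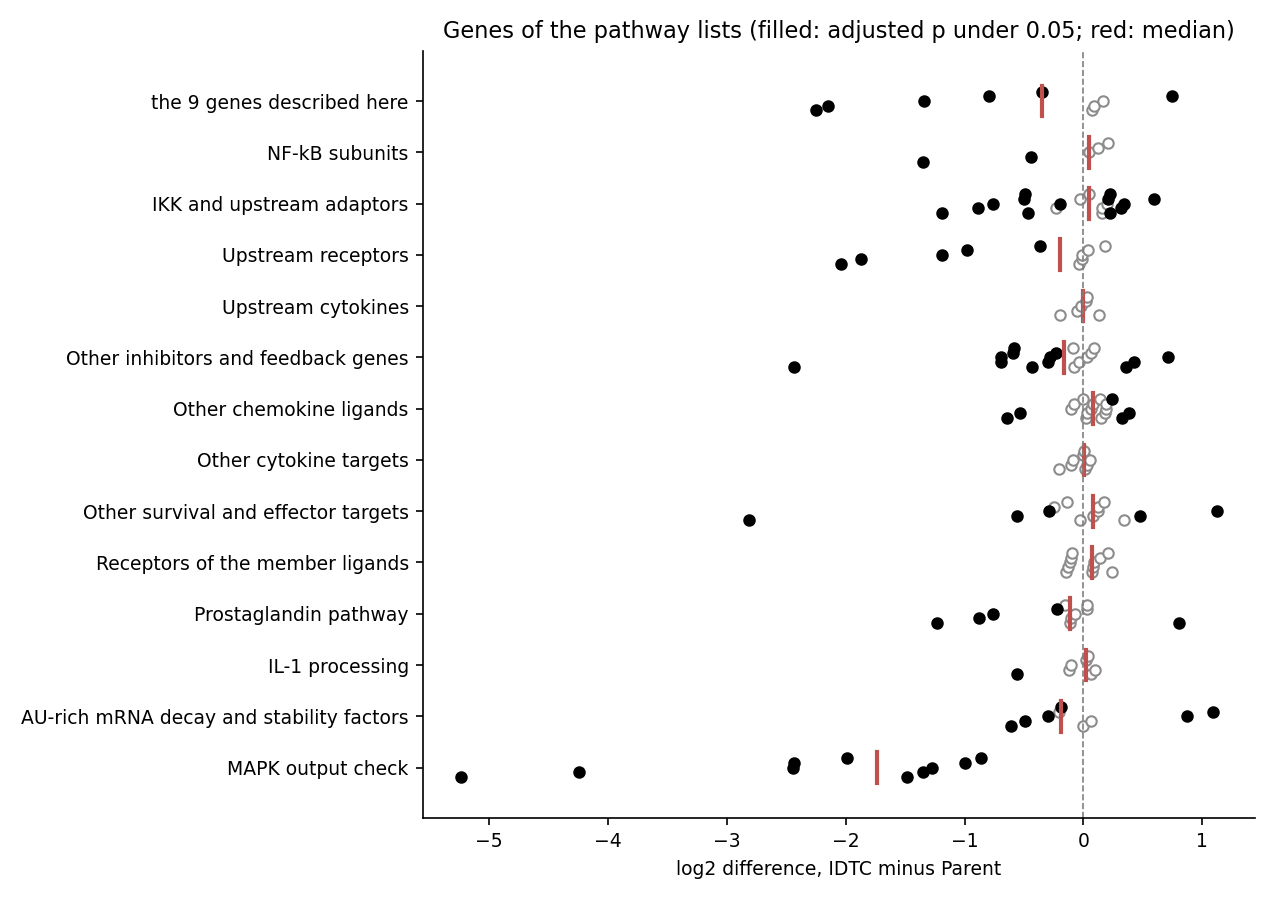
Log2 difference (IDTC minus Parent, horizontal axis) of every measured gene of the 9 described and of the 13 pathway lists (vertical axis), filled where the adjusted p is under 0.05, with the list median in red. The 10 MAPK output genes all lie left of 0, while cytokine genes and receptors of the ligands cluster at 0.

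Of 13 survival and effector targets, 3 fell, 2 rose and 8 were not called. PLAUR, the urokinase receptor gene, fell by 2.81 ± 0.08 (SE), from 9.61 ± 0.03 in Parent to 6.80 ± 0.14 in IDTC arrays (SD). LCN2 fell by 0.56 ± 0.10, and the anti-apoptotic BCL2A1, a known MITF as well as NF-kB target, rose by 1.12 ± 0.08. After re-centring on the named genes 4 were higher and 3 lower, and under either quantile normalization 5 were lower. None of 11 receptor genes for the ligands of the group was called by limma. CCR6 (0.24 ± 0.09) and CXCR1 (0.21 ± 0.08) lay farthest from 0 and were the 2 with an unadjusted p under 0.05. Of these genes, 2 were called higher after re-centring on the named genes, 1 was higher without IDTC 1, 2 were lower without IDTC 3 and 1 was lower without Parent 2.

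Called genes that work with PTGS2 went both ways, and the only called gene of interleukin 1 processing fell. In the prostaglandin list 4 of 11 fell, 1 rose and 6 were not called. PLA2G4A, the phospholipase that frees the arachidonic acid PTGS2 uses, fell by 0.88 ± 0.14, the thromboxane synthase gene TBXAS1 fell by 1.23 ± 0.06, and HPGD, which breaks prostaglandins down, rose by 0.80 ± 0.09. Of 7 measured genes of interleukin 1 processing, the inflammatory caspase gene CASP4 fell by 0.56 ± 0.06 and 6 were not called. Of 9 genes for factors that bind AU-rich elements, the decay signals carried by many chemokine mRNAs, or regulate those that do, 4 fell, 2 rose and 3 were not called. The decay factor gene ZFP36L1 rose by 0.87 ± 0.05, the translational repressor gene TIA1 rose by 1.09 ± 0.06 and HNRNPD fell by 0.61 ± 0.07.

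All 10 genes listed as reporters of MAPK output fell (median log2 difference -1.73). The list was chosen with earlier results known, so these genes are no independent check of the treatment labels. Among them DUSP6, the ERK phosphatase, had 8.75, 8.86 and 8.66 in IDTC arrays, against 11.20, 11.19 and 11.21 in Parent arrays, while SPRY4 fell by 5.24 ± 0.16 and ETV4 fell by 4.24 ± 0.06. IER3 belongs to this list as well as to that of the feedback genes.

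The line's label was checked against lineage markers. Of 7 measured melanocyte markers, 5 rose, S100B fell by 0.85 ± 0.07 and MITF was not called (median log2 difference 0.88). PMEL stood at 13.40 ± 0.04 in IDTC and 12.52 ± 0.02 in Parent arrays (SD), whereas TYRP1 stood at 7.58 ± 0.25 in IDTC and 4.69 ± 0.10 in Parent arrays (SD). TYRP1 was among the dimmest 40% of genes by its mean over all arrays. Because leukocytes and stromal cells also express many of the 9 genes, markers of these were read beside them. Of 12 leukocyte markers, LYZ (-3.03 ± 0.09) and CD68 (-0.76 ± 0.05) fell, MS4A1 rose (0.37 ± 0.12) and 9 were not called. The median log2 difference of the list was -0.09. Its summed log2 level ranged over 65.9 to 67.2 in IDTC and 69.6 to 70.5 in Parent arrays. This sum includes the falls of LYZ and CD68 and does not measure an amount of leukocytes. The pan-leukocyte gene PTPRC was dim throughout, at 3.77, 3.71 and 3.95 in IDTC arrays, against 3.71, 3.63 and 3.67 in Parent arrays, and log2 values have no level of 0. Of 8 fibroblast markers 1 rose and 2 fell, and limma called none of 8 endothelial and 7 keratinocyte markers, of which 0 had an unadjusted p under 0.05. The part of such markers in the results above was not tested.

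The differences were recomputed under 15 alternatives. CCL20, TNFAIP3, PTGS2, ICAM1 and NFKBIA kept their direction and their call in every alternative that held them, with ranges of -2.31 to -2.18 for CCL20, -2.22 to -2.05 for TNFAIP3, -1.46 to -1.12 for PTGS2, -0.82 to -0.70 for ICAM1 and 0.72 to 0.86 for NFKBIA. CCL20 lay among the dimmest 40% of genes, as did CXCL8, CXCL1, CXCL2 and IL1B, and was therefore absent from the alternative without them. Under 3 of the 4 other scalings CXCL1 passed the threshold, which made the split of the 9 genes 2 higher and 5 lower in place of 1 higher and 5 lower.

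**Figure D5:**
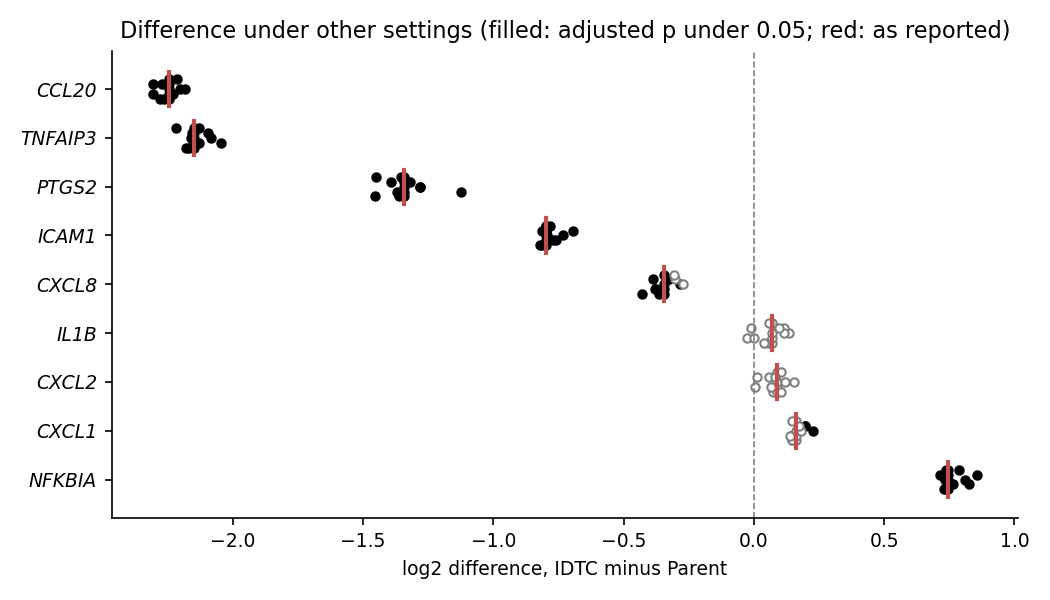
Log2 difference (IDTC minus Parent, horizontal axis) of the 9 genes under the alternatives (points, filled where the adjusted p is under 0.05) and as reported (red lines). The points of the 5 genes with the largest differences stay filled, while CXCL8 and CXCL1 have both filled and open points.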

How the data were processed

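The authors deposited log2 expression values, 1 column per array, for 33297 probe sets. Per the submitters' processing notes, Affymetrix Expression Console, RMA and Partek 6.6 were used, without the role of each. No genome build was named in the sources used here, and the deposited table has no detection call. Groups and replicate numbers came from the sample titles. Of the probe sets, 19460 had 1 symbol in the platform annotation, 1754 had several and 12083 had none or were not listed. By gene number 19429 matched GRCh38.p14 records, and no symbol changed. The brightest probe set stood for each of 18417 genes.

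Differences (IDTC minus Parent) came from lmFit and eBayes of limma 3.58.1 under R 4.3.3 (no covariates, no filter), after a check on simulated data. The genes, lists and tests were chosen with earlier results of these data known. All 9 measured genes are mentioned in the text. From each list up to 3 called genes with the largest difference are too, or 2 given as values where none was called. NFKB1, RELA, RELB, CXCL3, CXCL5, CXCL6, TNF, IL1A and IL6 were always mentioned. Marker genes beyond these, and the relatives of NFKBIA, were picked for mention after their values were seen. No list was tested as a set. Medians of the arrays were 6.29, 6.29 and 6.36 (IDTC) and 6.25, 6.32 and 6.32 (Parent), and their number limits the precision. Interquartile ranges were 3.49, 3.42 and 3.31 (IDTC) and 3.60, 3.51 and 3.56 (Parent). Each IDTC array was thus narrower than each Parent array, and the part of this in small differences of dim genes was not tested. Arrays correlated at r = 0.995 to 0.998 within and 0.953 to 0.957 between groups, across genes. Alternatives covered scaling, dim genes, probe sets, the variance model, a replicate block and leaving out each array.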

Additional observations from a re-analysis of the deposited data

How the results depend on the processing

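Over 15 alternatives, 121 of 130 recomputed differences of the 9 genes kept their direction and their side of the threshold. IL1B, which was not called, reversed sign under quantile normalization over all probe sets (-0.026) and over the named genes (-0.010). Quantile normalization over the named genes, which are all 18417 genes measured, and re-centring on them were chosen after seeing the data. The number of genes called higher was 2 in place of 1 under quantile normalization over all probe sets, under quantile normalization over the named genes and under re-centring on the named genes, in each case by CXCL1. The number called lower was 3 in place of 5 without the dimmest 40% of genes, by construction, since that fit held 4 of the 9. Leaving out each array gave 1 to 2 genes higher, with the 2 reached without IDTC 1, where CXCL1 passed (0.20, adjusted p = 0.0403), 4 to 5 lower and 53 to 69 called genes of the pathway lists. The cause was not tested. Counts of single lists stayed within 1.5-fold in 368 of 390 cases. Same-numbered arrays deviated together for numbers 1 (r = 0.32) and 3 (r = 0.26) but not 2 (r = -0.19). Pairs of unlike number ran from r = -0.47 to 0.37, so these values cannot decide whether same-numbered arrays were paired. With the replicate block 1 gene was higher and 5 lower, 66 pathway genes were called in place of 63, and 1 of the 11 receptor genes of the ligands was called higher in place of 0. The table has no signal-to-background measure, so it is unknown whether the dim CXCL2 and IL1B lay above background.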
